A study of Mus musculus with 2 samples.

Results

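The Mir181 family of the mouse comprises 6 microRNA genes that stand as 3 pairs on 3 chromosomes, Mir181a-1 with Mir181b-1, Mir181a-2 with Mir181b-2, and Mir181c with Mir181d. The members were chosen by gene symbol, as the rows whose Ensembl identifier carries one of these symbols in GENCODE, and the family was picked with earlier values of these data known, so its levels are a description. All 6 were found among the 1973 microRNA genes of the tables, and all 6 had at least 10 counts in both libraries, as did 333 genes in all. The study profiled small RNAs of under 30 nucleotides from whole limbs of B6NCrl mouse embryos of mixed sex at embryonic day 14.5, with no treatment or mutation given in the labels. It held 1 group of 2 samples, replicates 1 and 2, each labelled as the 4 limbs of a pup although the sex label speaks of a pool, and collected on different days under the same donor label. There was no second condition, so the comparisons are between members, between loci and between the libraries, and how far the spread between the libraries is technical was not tested.

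MicroRNAs are cut from a hairpin that yields an arm from its 5′ side and an arm from its 3′ side, and the loaded arm pairs with target mRNAs mainly through its seed, bases 2 to 8. The miR-181 family is best known from the immune system, where miR-181a tunes the sensitivity of the T cell receptor in thymocytes. In muscle it is upregulated as myoblasts differentiate, where it represses the homeobox gene Hoxa11, and in endothelium miR-181b dampens inflammatory signalling.

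The mature sequences are shown because they decide which reads can be given to which gene. The 6 genes make 4 different 5p arms, since Mir181a-1 and Mir181a-2 encode one arm and Mir181b-1 and Mir181b-2 another. Bases are written 5′ to 3′ from the RefSeq annotation of GRCm38.p6, with the seed in capitals.
miR-181a-5p: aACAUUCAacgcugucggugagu
miR-181b-5p: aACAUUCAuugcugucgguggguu
miR-181c-5p: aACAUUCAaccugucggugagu
miR-181d-5p: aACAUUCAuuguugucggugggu

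All 4 carried the same seed, and of 1738 mature microRNAs in the RefSeq table no other gene had it. Counted from 1 at the 5′ end, miR-181b-5p and miR-181a-5p differed after the seed by 3 substitutions, written here with the base of miR-181a first (A9U, C10U and A21G), and by 1 added base at the end. The arm of miR-181d differed from that of miR-181b by C12U (miR-181b first) and by its length of 23 against 24 bases. The arm of miR-181c lies at an edit distance of 1 from that of miR-181a, being 1 base shorter.

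The 3p arms were each encoded by a single gene, so a read of this arm can be told apart between the copies.
miR-181a-1-3p: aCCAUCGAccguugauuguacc
miR-181a-2-3p: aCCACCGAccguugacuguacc
miR-181b-1-3p: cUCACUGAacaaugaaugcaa
miR-181b-2-3p: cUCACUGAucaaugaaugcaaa
miR-181c-3p: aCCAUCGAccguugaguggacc
miR-181d-3p: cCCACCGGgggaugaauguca

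Here too bases 2 to 8 are in capitals. The 3p arms of Mir181a-1 and Mir181c had the same seed, as did those of Mir181b-1 and Mir181b-2, while those of Mir181a-1 and Mir181a-2 differed inside it. The arm of Mir181a-1 and that of Mir181a-2 differed by U5C and U16C (Mir181a-1 first), and within the arms of Mir181b-1 and Mir181b-2 the substitution was A9U (Mir181b-1 first). Reads with several alignments were tallied apart and given to no gene, and they made up 31.8% of the reads of replicate 1 and 32.6% of those of replicate 2. Both arms of Mir181c and both arms of Mir181d were found at no other gene of the table. An exact read of the shared 5p arm of the other 4 genes aligns to both copies, so their counts rest on 3p arms and on 5p reads that run into sequence separating the copies, and the tables do not say which arm a count came from.

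The hairpins showed how long such a 5p read must be. In Mir181a-1 and Mir181a-2 the hairpins stay identical for 1 base before the shared 23-base arm and for 4 bases after it, a run of 28 bases that ends at A28G (Mir181a-1 first, counted from the first base of the arm). In Mir181b-1 and Mir181b-2 the hairpins stay identical for 2 bases before the shared 24-base arm and part at the very next base after it, G25U (Mir181b-1 first). Of the stretches of 22 bases in a hairpin, 7 of 66 in Mir181a-1, 7 of 55 in Mir181a-2, 5 of 59 in Mir181b-1 and 5 of 68 in Mir181b-2 recurred in another hairpin of the table. For Mir181d it was 0 of 51, and the hairpin of Mir181c was not analysed here.

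In GRCm38 coordinates, Mir181a-1 (ENSMUSG00000065565.1) lies on the forward strand of chromosome 1 from 137966455 to 137966541, and Mir181b-1 (ENSMUSG00000065458.1) follows after 97 bases, from 137966639 to 137966718. GENCODE M21 places both in an intron of the noncoding gene Gm4258 on the same strand. A second noncoding gene of that strand, A430106G13Rik, has an exon that covers all 80 bases of Mir181b-1 and 11 bases of Mir181a-1. Mir181a-2 (ENSMUSG00000065423.1) lies on the forward strand of chromosome 2 from 38852735 to 38852810. Its partner Mir181b-2 (ENSMUSG00000065578.1) follows after 1019 bases, from 38853830 to 38853918. Both lie opposite to an intron of Nr6a1, a nuclear receptor gene with a role in embryonic patterning, and Mir181b-2 also lies opposite to an exon of the unclassified gene Gm44144. On the reverse strand of chromosome 8, Mir181c (ENSMUSG00000065483.1 in the tables) spans 84178873 to 84178961, and Mir181d (ENSMUSG00000076338.1) spans 84178716 to 84178787, with 85 bases between them. Both lie in an intron of Nanos3, a germ cell gene, on its own strand. M21 holds a later version of the Mir181c entry than the tables, so its limits at counting may differ. No other microRNA gene of the tables lay within 10 kb of any of the 3 loci.

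Levels are own-strand counts scaled by the library's sum of own-strand microRNA counts (CPM), with library sums of 4608816 counts in replicate 1 and 4144385 counts in replicate 2. They were not divided by length, since the mature arms have 21 to 24 bases, and they compare reads rather than amounts of RNA, because how evenly the arms yield reads was not measured. In whole tissue, fewer cells of a type and less RNA per cell cannot be told apart. The family's 6 genes together reached 15763 CPM in replicate 1, against 17464 CPM in replicate 2. Its mean was 16613 ± 1203 CPM (SD, n = 2), or 1.66% ± 0.120 of the microRNA counts. With reads of several alignments in the total, the mean was 10120 CPM, and every member's level falls in like measure.

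Most of the family's countable reads came from the chromosome 8 pair. Mir181c had 30762 counts in replicate 1 and 29690 counts in replicate 2, or 6675 and 7164 CPM. Mir181d had 22904 and 23327 counts in replicates 1 and 2, or 4970 and 5629 CPM. With means of 6919 ± 346 and 5299 ± 466 CPM (SD, n = 2), they ranked 33rd and 38th of all genes. The ranges of the libraries did not overlap, and Mir181c was above Mir181d by 1.34 times in replicate 1 and 1.27 times in replicate 2. Neither gene has an arm found exactly at another gene of the table. These levels, alone in the family, thus lose no exact full-length reads of an arm to such a gene. How shorter or mismatched reads fell between miR-181c and miR-181a, or between miR-181d and miR-181b, was not tested.

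The countable reads of the chromosome 1 pair came almost wholly from Mir181a-1. That gene had 7507 counts in replicate 1 and 7244 in replicate 2, or 1629 and 1748 CPM, a mean of 1688 ± 84.2 CPM (SD, n = 2) at rank 84. Mir181b-1 had 234 and 225 counts in replicates 1 and 2, or 50.8 and 54.3 CPM, a mean of 52.5 ± 2.49 CPM at rank 225. Within a library, Mir181a-1 was 32.1 times Mir181b-1 in replicate 1 (95% exact binomial interval 28.2 to 36.7) and 32.2 times in replicate 2 (28.2 to 36.9). Intervals cover counting error only, since no molecular identifiers were recorded.

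On chromosome 2 the order was the other way round, with the b gene above the a gene. Mir181b-2 had 10484 counts in replicate 1 and 11108 in replicate 2, or 2275 and 2680 CPM, a mean of 2478 ± 287 CPM (SD, n = 2) at rank 68. Mir181a-2 had 757 and 783 counts in replicates 1 and 2, or 164 and 189 CPM, a mean of 177 ± 17.5 CPM at rank 167. Mir181b-2 was 13.8 times Mir181a-2 in replicate 1 (12.9 to 14.9) and 14.2 times in replicate 2 (13.2 to 15.3). In each of these pairs, 1 gene held nearly all of the locus's counts, while the partners of the chromosome 8 pair differed far less.

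From high to low the levels ran Mir181c, Mir181d, Mir181b-2, Mir181a-1, Mir181a-2 and Mir181b-1, and no neighbours in that order overlapped between libraries. Mir181d was 2.14 ± 0.0599 times Mir181b-2 (SD, n = 2), Mir181b-2 was 1.46 ± 0.0968 times Mir181a-1, and Mir181a-2 was 3.36 ± 0.173 times Mir181b-1. The extremes, Mir181c and Mir181b-1, stood apart by 131 times in replicate 1 and 132 times in replicate 2. With 2 libraries, an absence of overlap is a weak statement about other embryos, and no test was made because the levels were known when the family was picked.

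**Figure D1:**
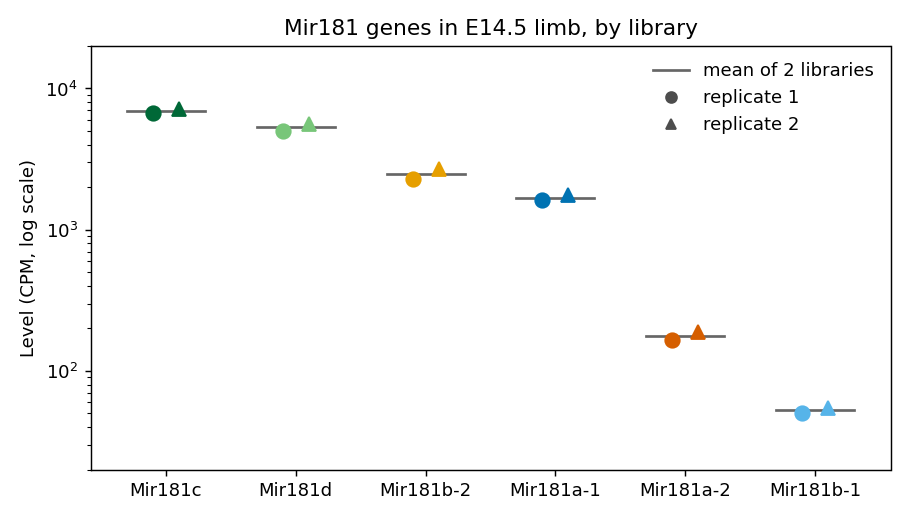
Level of each Mir181 gene in CPM (log scale), with circles for replicate 1, triangles for replicate 2 and a line at the mean. Mir181c and Mir181d lie at 4970 to 7164 CPM in both libraries, and Mir181b-1 lies lowest at 50.8 and 54.3 CPM.

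The 3 loci were then compared by their summed counts. In replicates 1 and 2, the chromosome 1 pair summed to 1680 and 1802 CPM, the chromosome 2 pair to 2439 and 2869 CPM, and the chromosome 8 pair to 11644 and 12793 CPM. The means were 1741 ± 86.7, 2654 ± 304 and 12218 ± 812 CPM (SD, n = 2). Of the family's counts, Mir181a-1 with Mir181b-1 gave 10.5% ± 0.238, Mir181a-2 with Mir181b-2 gave 16.0% ± 0.676, and Mir181c with Mir181d gave 73.6% ± 0.438.

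Within a library the ratios need no scaling. The chromosome 1 pair was 0.143 ± 0.00238 times the chromosome 8 pair (SD, n = 2), with 0.144 (95% exact binomial interval 0.141 to 0.148) in replicate 1 and 0.141 (0.137 to 0.144) in replicate 2. The chromosome 2 pair was 0.217 ± 0.0105 times the chromosome 8 pair. The chromosome 1 pair was 0.658 ± 0.0428 times the chromosome 2 pair, with 0.689 in replicate 1 and 0.628 in replicate 2. The order of the loci was thus the same in both libraries. The arms of Mir181c and Mir181d have no exact copy at another gene of the table. Together these genes had 2.78 ± 0.0627 times the counts of the other 4 genes. The missing 5p reads of those 4 genes were not measured, so this order holds for singly aligned reads and their part in it was not tested.

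**Figure D2:**
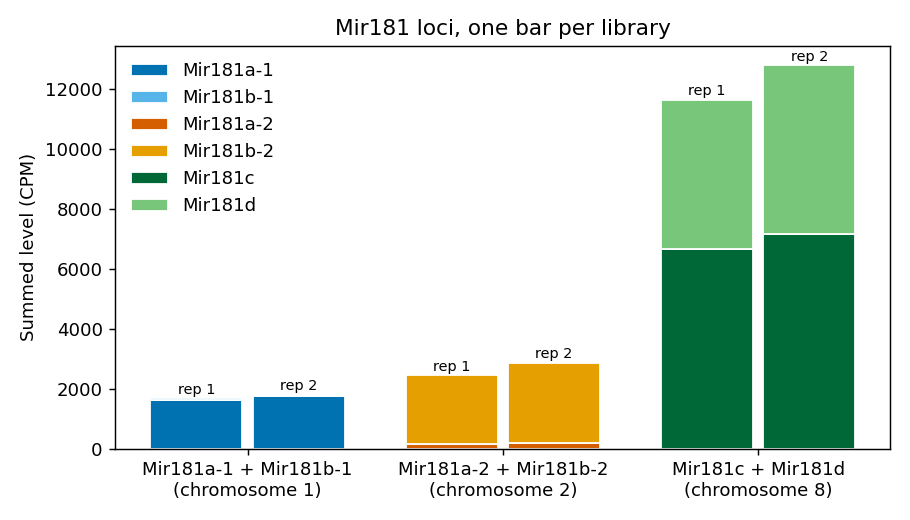
Summed level of each Mir181 locus in CPM, 1 bar per library, split by gene. The chromosome 8 pair reaches 11644 and 12793 CPM, and Mir181b-1, at 50.8 and 54.3 CPM, is too thin to see on its bar.

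Summed over copies instead of by locus, the 2 Mir181a genes gave 1865 ± 102 CPM (SD, n = 2) and the 2 Mir181b genes 2530 ± 289 CPM. These are sums of gene counts that leave out exact reads of the shared 5p arm, and so are no level of miR-181a-5p or miR-181b-5p. The counts of the copies were very unequal. Mir181a-1 was above Mir181a-2 by 9.92 times in replicate 1 (9.20 to 10.7) and 9.25 times in replicate 2 (8.59 to 9.97). Mir181b-2 was above Mir181b-1 by 44.8 times in replicate 1 (39.4 to 51.2) and 49.4 times in replicate 2 (43.3 to 56.6). The higher copy lay on chromosome 1 for Mir181a and on chromosome 2 for Mir181b. The 2 pairs also differ in where a 5p read that runs on past its 3′ end becomes assignable. By the hairpins, this is 5 bases past the arm for Mir181a and the next base for Mir181b. Before the arm, the hairpins stay identical for 1 base in the Mir181a pair and for 2 bases in the Mir181b pair. The part of either side in the ratios was not tested.

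The same kind of ratio was taken for all pairs of microRNA genes with 1 identical arm and 1 arm of their own. With at least 10 counts for each gene over both libraries, there were 16 pairs, the 2 Mir181 pairs among them. Over all 16, the higher copy was above the lower by a median of 3.41 times, with a range of 1.06 to 49.3 times. The Mir181b pair, at 47.1 times, ranked 2nd of the 16, behind the Mir196a pair and ahead of the Mir92 pair at 36.9 times. The Mir181a pair, at 9.58 times, ranked 6th. The minimum count leaves out very unequal pairs, such as Mir194-2 (314 and 272 counts in replicates 1 and 2) and Mir194-1 (1 and 2 counts). The range and the ranks therefore hold only for pairs that reach it. These pairs were set side by side after the members' ratios had been seen, and no test was made.

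**Figure D3:**
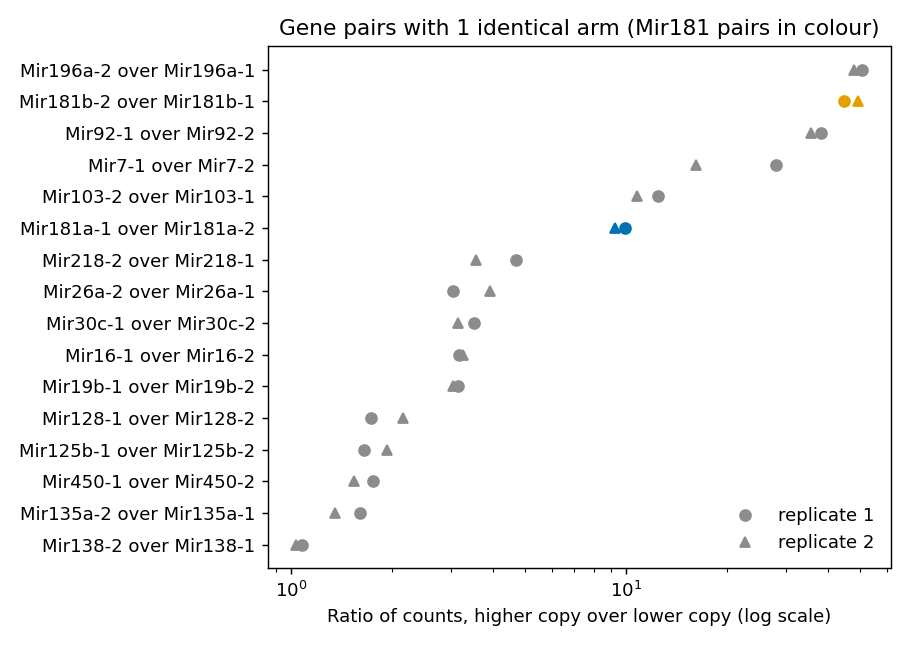
Ratio of counts between the higher and the lower copy (log scale) for the 16 pairs of microRNA genes with 1 identical arm, with circles for replicate 1 and triangles for replicate 2. The Mir181b pair (44.8 and 49.4 times) lies near the top and the Mir181a pair (9.92 and 9.25 times) above the median of 3.41 times.

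Genes were also grouped by how many of their 2 annotated mature arms are found at another gene. Of 582 genes with 2 arms in the RefSeq table, 512 had no shared arm, 51 had 1 and 19 had 2. Among those detected, with at least 10 counts in both libraries, the median level was 353 CPM over 218 genes with no shared arm, 66.9 CPM over 37 genes with 1, and 126 CPM over 4 genes with 2. In the group with no shared arm, Mir181c ranked 28th and Mir181d 33rd of 512. In the group with 1 shared arm, Mir181b-2 ranked 2nd, behind Mir16-1 at 2523 CPM, Mir181a-1 ranked 4th, Mir181a-2 12th and Mir181b-1 23rd of 51. Mir181b-1 lay below the median of its group's 37 detected genes and the other 3 lay above it. Against the whole group of 51, whose median was 31.3 CPM, Mir181b-1 too lay above. Detection depends on level, so the medians of 353, 66.9 and 126 CPM describe the detected genes only. Over all genes of each group, detected or not, the medians were 1.16 CPM with no shared arm, 31.3 CPM with 1 and 0 CPM with 2. The order of the groups thus differs between the 2 ways of counting.

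**Figure D4:**
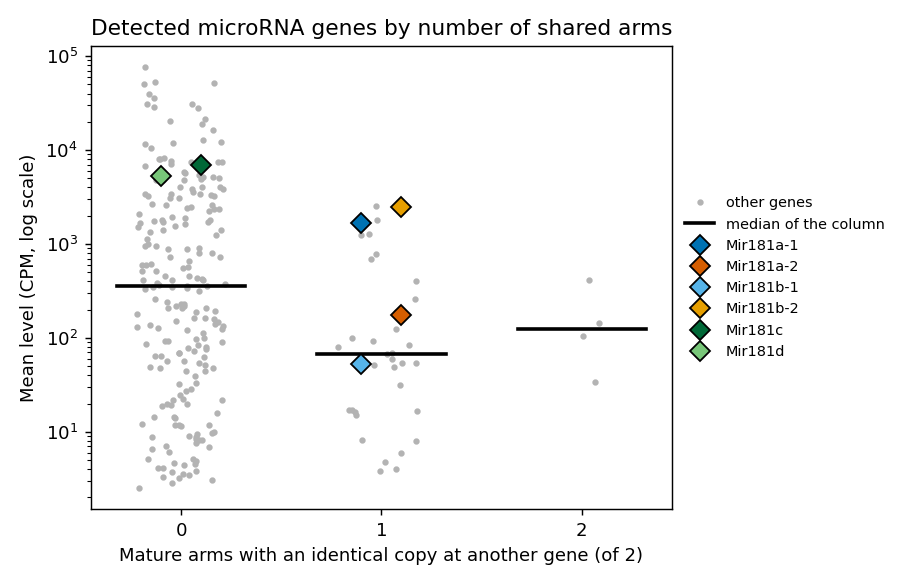
Mean level in CPM (log scale) of the detected microRNA genes by the number of their 2 mature arms with an identical copy at another gene, with the median of each column as a line and Mir181 genes as diamonds. Mir181c and Mir181d stand in the column with 0 shared arms, far above its median of 353 CPM, and Mir181b-1 lies just under the median of 66.9 CPM of its column.

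No counts were placed on the opposite strand of any member in either library, which allows up to 3 counts for each gene and library, or 0.651 CPM (replicate 1) and 0.724 CPM (replicate 2). This holds also for Mir181a-2 and Mir181b-2, which lie opposite to Nr6a1, and for Mir181a-1 and Mir181b-1, which lie opposite to an intron of the noncoding gene Gm26936. Counts on either strand were therefore equal to own-strand counts at all 6 genes.

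The libraries were compared gene by gene with a two-sided exact binomial test, adjusted by the Benjamini-Hochberg method over the 407 genes whose counts summed to 10 or more. It sets the reads of these 2 libraries against counting noise and compares libraries, not conditions. All 6 members had log2 ratios of replicate 1 over replicate 2 below 0. The members' median log2 ratio was -0.14, against -0.04 over all genes tested. At an adjusted p under 0.05, 5 of the 6 were called, where 35.6% of all genes tested were (145 of 407), and 53.1% of the 275 genes with 100 counts or more were when those alone were tested. Mir181d (adjusted p = 1.33e-39, exact binomial test) and Mir181b-2 (adjusted p = 2.97e-32) lay furthest from counting noise. Mir181b-1, with the fewest reads, was not called (adjusted p = 0.731). Mir181a-2 was called (adjusted p = 0.0196), but not with TMM scaling, at an adjusted p of 0.0883, or with DESeq2 size factors, at 0.0937 (0.0134 to 0.0937 over the 4 alternative settings). No member reached a 2-fold difference, where 0.983% of all genes tested were called with that threshold added (4 of 407).

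The log2 ratios of replicate 1 over replicate 2 were then set out by pair. Mir181a-1 and Mir181b-1 both stood at -0.10 in log2 ratio, Mir181a-2 and Mir181b-2 at -0.20 and -0.24, and Mir181c and Mir181d at -0.10 and -0.18. The intervals of Mir181c over Mir181d did not overlap between the libraries, at 1.32 to 1.37 times in replicate 1 and 1.25 to 1.29 times in replicate 2. The summed loci stood at -0.10 for chromosome 1, -0.23 for chromosome 2 and -0.14 for chromosome 8. The median absolute log2 ratio was 0.14 over the members and 0.11 over the 244 genes that reached 100 counts in each library. The CV between the libraries ran from 4.74% for Mir181b-1 to 11.6% for Mir181b-2.

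**Figure D5:**
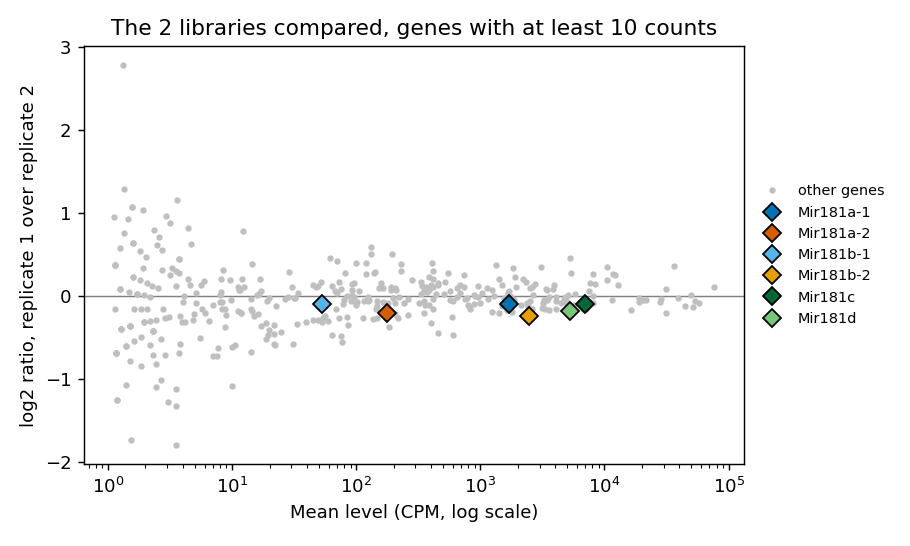
Log2 ratio of replicate 1 over replicate 2 against the mean level in CPM (log scale) for the 407 genes tested, with Mir181 genes as diamonds. All 6 lie below 0, between -0.10 and -0.24. Mir181b-2 (-0.24) and Mir181d (-0.18) lie at the lower edge of the cloud of other genes at their levels, and the other members lie inside it.

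Set beside other families with copied members, Mir181 stood below Mir30 and Mir26 and far above Mir29. The family's sum was 0.552 ± 0.0279 times that of the Mir30 family (SD, n = 2), which reached 30096 ± 658 CPM and was led by Mir30e at 21558 ± 491 CPM. It was 0.578 ± 0.0316 times that of the Mir26 family, at 28741 ± 509 CPM, nearly all of it from Mir26b (28664 ± 500.5 CPM). Against the Mir29 family, known for repressing collagen mRNAs, at 146 ± 3.69 CPM, it was 114 ± 5.37 times as high. Mir29a led that family at 90.6 ± 2.92 CPM. Identical copies bear on these sums too. Of the Mir29 genes 2 of 4 were detected, and the copied Mir29b-1 and Mir29b-2 stood at 1.12 and 0.446 CPM, so the ratio to Mir29 holds for singly aligned reads only. The higher copies Mir181b-2 and Mir181a-1 stood at 2478 and 1688 CPM, and the lower copies Mir181a-2 and Mir181b-1 at 177 and 52.5 CPM. The copied genes Mir30c-1 and Mir30c-2 stood at 53.6 and 16.2 CPM, and Mir26a-2 and Mir26a-1 at 59.2 and 17.0 CPM.

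The marker lists of cell types in which miR-181 is known differed in summed level, which compares reads and not numbers of cells. The Mir181 family summed to 0.869 ± 0.0531 times the level of Mir126a (SD, n = 2), the microRNA of endothelium, which reached 19115 ± 215 CPM. The family was 3.03 ± 0.881 times the skeletal muscle list (5674 ± 1256 CPM, 4 detected of 7 genes in the tables), which Mir206 led at 5226 ± 1152 CPM. Its undetected genes Mir1a-1, Mir133a-1 and Mir133a-2 have near-identical copies and held 1 or 2 counts a library, so the list's counts are a lower limit and the ratio holds for singly aligned reads. The family was 26.5 ± 0.217 times the leukocyte list (627 ± 40.3 CPM, all 3 genes in the tables detected, of 5 listed). The myeloid microRNA Mir223 led that list at 354 ± 11.1 CPM. The log2 ratio of replicate 1 over replicate 2 was -0.15 for the summed Mir181 family, 0.46 for the muscle list, -0.13 for the leukocyte list and -0.02 for Mir126a. Which cells held the family's RNA was not measured. The erythroid list summed to 482 ± 91.9 CPM, led by Mir451a at 405 ± 77.4 CPM, with a log2 ratio of 0.39 for the list.

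Markers of cartilage and surface epithelium stood high in both libraries. The cartilage list summed to 59560 CPM in replicate 1 and 63162 CPM in replicate 2, led by Mir140 (57289 ± 2418 CPM, SD, n = 2), and the surface epithelium list to 64405 and 53931 CPM, led by Mir203 (35988 ± 6258 CPM). Of the neural genes Mir124a-1, Mir124a-2, Mir124a-3, Mir9-2 and Mir9-3 in the tables, none was detected, and Mir9-3 alone had counts (2 in replicate 1). These neural genes have identical copies, so their counts too leave out reads with several alignments. Their low counts therefore cannot show whether neural RNA was absent.

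The genes nearest in level to each member, by Euclidean distance in log2(CPM + 1) over the 2 libraries, came from other loci. Mir181c lay nearest to Mir93 (distance 0.06) and Mir106b (0.07), both of the proliferation-linked cluster in Mcm7, at 7076 ± 528 and 6736 ± 540 CPM. Mir181d lay nearest to Mir27b (0.06) and Mir744 (0.14). Mir181b-2 lay nearest to Mir361 (0.09) and Mir423 (0.13), and Mir181a-1 to Mir1983 (0.05) and Mir301 (0.07). For the lower copies they were Mir132 (0.10) and Mir135b (0.14) beside Mir181a-2, and Mir146 (0.03) and Mir30c-1 (0.05) beside Mir181b-1. With 1 tissue and 2 libraries, this is a likeness in level only.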

How the data were processed

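Small RNA libraries of 2 limb samples were used. The deposited values were raw read counts per gene, with no normalization. Reads had been aligned to mm10 and counted on GENCODE M4, per the read-me texts that the authors deposited. The aligner, counter and settings are not given in the sources used here. The headerless columns were read as counts on either, the own and the opposite strand, judged from their values, and 4 tally rows (49.7% of reads on average) were kept out of totals and tests. Symbols and positions came from GENCODE M21 (1894 of 1973 identifiers matched), and sequences from RefSeq (GRCm38.p6), matched by symbol. All 6 members had mature sequences and 5 had a hairpin there. CPM used the own-strand gene sum.

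The exact binomial test (adjusted p under 0.05, prior count 0.5 for ratios) was tested on simulated counts. A quasi-likelihood test was not run, since 1 library a side leaves no residual degrees of freedom. Scaling used edgeR 4.0.16 (TMM) and DESeq2 1.42.0 (size factors) in R 4.3.3, and the rest Python 3.11.15 with scipy 1.17.1, numpy 2.4.6, pandas 2.3.3 and matplotlib 3.10.9.

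The members, lists, tests and alternatives were chosen with earlier results of these data known. Named genes were the members, the 2 genes nearest to each in level, genes with the same seed and the highest gene of each list. Any other gene was picked for mention with its values in view.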

Additional observations from a re-analysis of the deposited data

How the results depend on the processing

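Levels depend on the total used. With reads of several alignments in the total, the family stood at 10120 CPM, the locus of Mir181a-1 and Mir181b-1 at 1061 CPM, that of Mir181a-2 and Mir181b-2 at 1616 CPM and that of Mir181c and Mir181d at 7443 CPM. With TMM, DESeq2 size factors or either-strand counts, levels of the family, loci and members moved by less than 1 SD. The locus ratios were equal on either strand by construction, since no member had opposite-strand counts, so this equality is no check. Leaving out a replicate gave 15763 to 17464 CPM for the family, 1680 to 1802, 2439 to 2869 and 11644 to 12793 CPM for the loci in the same order, and ratios of 0.141 to 0.144, 0.209 to 0.224 and 0.628 to 0.689. Genes called between the libraries numbered 145, against 135 with TMM, 133 with DESeq2 size factors, 136 of 687 with no minimum count and 146 of 275 with at least 100 counts. Mir181a-2 was the only member whose call changed, with both scalings. Its log2 ratio was then -0.16. The members' directions held in these settings. No paired analysis was possible because there was 1 group. Depth limits Mir181b-1 most, with 225 and 234 counts.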
